A study of Homo sapiens with 6 samples.

Results

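NF-kB is a family of DNA-binding dimers whose activity is set largely by inhibitors that its own target genes replace. The genes described here are 10 members of that system, chosen by symbol with earlier results of these data known. They are the subunits NFKB1, NFKB2, RELA and RELB, the I-kappa-B family members NFKBIZ, NFKBIA and NFKBIE, and the feedback and target genes TNFAIP3, BIRC3 and SOD2. Of these 10, 9 had a named probe set, 1 each, among the 18417 genes tested, and BIRC3 had none and was not analysed here. In Du145 cells with the TSC2 knockdown (shTSC2), NFKBIZ, TNFAIP3, SOD2, NFKB2 and RELB were higher than in control cells, NFKBIZ by 6.48-fold, and in the cells labelled as adapted from the knockdown (shTSC2-adapted) none of the 9 differed from control past the test. The RELB call was lost in several other settings, among them median centring.

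Du145 is a human prostate carcinoma line. All cells were grown at 1% oxygen, RNA was taken after 24 h of hypoxia, and the groups were control cells, cells infected with a lentivirus carrying a short hairpin against TSC2, and cells from that knockdown that the labels call adapted, with 2 arrays each. TSC2 restrains the growth kinase mTORC1. How the adapted cells were obtained, whether the controls carried a virus and how many hairpins or clones were used is not given in the sources used here. Nor is it stated that a group's arrays were separate cultures, so the p-values speak for array-to-array spread, possibly technical. In bulk RNA, fewer cells expressing a gene and less of its RNA per cell cannot be told apart. Values are log2 intensities of the arrays, differences are between group means with the standard error of the model (SE, 2 arrays per group). Tests are two-sided limma tests, adjusted over all 18417 genes, with a threshold of 0.05. The number of arrays limits the precision.

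Across the series, TSC2 itself stood at 7.52 and 7.59 in control, 6.67 and 6.55 in shTSC2, and 6.54 and 6.48 in shTSC2-adapted. It was lower in both knockdown groups (-0.95, adjusted p = 0.00102, and -1.05, adjusted p = 0.0241, limma), the second call not holding without either control or either shTSC2-adapted array (up to 0.386). Arrays of one group correlated at 0.990 to 0.997 across genes, which are not independent replicates. Of 6 epithelial markers 2 fell and 0 rose in shTSC2 against control, where 13.9% of all genes fell and 6.87% rose. Their differences were above 0 for 3 and below 0 for 3. In shTSC2-adapted against shTSC2, 3 of the 6 rose, where 9.25% of all genes did. KRT8 and KRT18 lay between group means of 11.23 and 11.50 in every group, while KRT19 (-1.38, adjusted p = 0.00664 by limma) and EPCAM (-1.29, adjusted p = 0.0271) were lower in shTSC2 than in control, calls lost without control 1 (adjusted p = 0.0655 and 0.181), and for EPCAM also without control 2 or shTSC2 1. Both were higher in the adapted cells than in shTSC2 (1.55, adjusted p = 0.00772, and 1.65, adjusted p = 0.0173, the latter lost without either shTSC2-adapted array). CDH1, the third of those that rose there (1.54, adjusted p = 0.00756), stood 1.40 above control in shTSC2-adapted (adjusted p = 0.0680). KRT19, EPCAM and CDH1 are named after their values were seen. Of 11 lymphoid and myeloid markers, which matter here because such cells carry a strong NF-kB response, 9 lay below the median of all probe sets (5.91), PTPRC, CD14 and CD3E among them. Their summed intensity was 413 to 434 in control, 473 to 494 in shTSC2 and 429 to 437 in shTSC2-adapted, and FCER1G was the 1 of 11 that rose (0.63, adjusted p = 0.0309, from a mean of 4.58). In shTSC2-adapted against shTSC2 all 11 were lower, where 10052 of all 18417 genes were below 0. FCER1G passed there (-0.68, adjusted p = 0.0342 by limma), where 3.24% of all genes fell. The part of other cells in the results that follow was not tested. Among 8 markers listed for embryonic kidney packaging lines, which make lentivirus, 2 rose in shTSC2 against control, where 6.87% of all genes rose. They were NEFM (0.99, adjusted p = 0.0130 by limma) and PAX2 (0.49, adjusted p = 0.0121). LHX1 (0.07), SIX2 (0.04), SALL1 (0.07) and WT1 (-0.18) did not pass, nor did NEFL (0.41) and INA (0.39). The summed intensity of the 8 was 662 to 665 in control, 738 to 858 in shTSC2 and 725 to 1011 in shTSC2-adapted. Its highest value, on shTSC2-adapted 2, went with the highest array values of the neurofilament genes NEFL (8.03), NEFM (6.96) and INA (7.47). All 5 endothelial markers and 4 of 7 fibroblast markers lay below that median, and none of these 12 passed.

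As background, RELA and RELB carry the domains that activate transcription, while NFKB1 and NFKB2 are made as long precursors, p105 and p100, whose processed forms p50 and p52 pair with them. NFKBIA (I-kappa-B alpha) and NFKBIE (I-kappa-B epsilon) hold dimers in the cytoplasm until a kinase complex marks them for degradation, and NFKBIZ (I-kappa-B zeta) acts in the nucleus, where it is needed for a secondary set of targets. TNFAIP3 encodes A20, which edits ubiquitin chains and shuts off signalling, BIRC3 a ubiquitin ligase at tumour necrosis factor receptors, and SOD2 the manganese superoxide dismutase of mitochondria. Most of these genes are themselves transcribed in response to NF-kB, which binds 10-base kB sites.

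Because several members rose together, their start regions were searched for kB sites in the RefSeq promoter table of build GRCh38.p14, which holds 300 bases per transcript start, 250 before it and 50 after. The table had 16 windows for 8 of the 10 members, and RELB and NFKBIE had no entry. The kB consensus, searched on both strands, was found in 8 of the 16 windows, against 11.3% of all 35116 windows. These windows belong to 6 of the 8 members, for which no share per gene was computed. Some exact sites recurred among the members. GGGAATTTCC was held by 3 of the 16 member windows, in 3 members, and by 0.145% of all windows. GGGACTTTCC was held by 2 member windows, in 2 members, and 0.191% of all windows. For GGGGATTTCC these were 2 member windows, in 2 members, and 0.111%, each counted on both strands. Several of these genes are textbook NF-kB targets, so the shares are a description, and a match is neither a bound site nor a cause. The 250 bases before the start are shown for NFKBIZ and TNFAIP3, which rose most, for NFKB2, which carries several matches, and for NFKBIA, the classical feedback inhibitor, 5′ to 3′ on the strand of the gene, with consensus matches on either strand in capitals.
NFKBIZ window 1, chr3:101827740-101827989, plus strand: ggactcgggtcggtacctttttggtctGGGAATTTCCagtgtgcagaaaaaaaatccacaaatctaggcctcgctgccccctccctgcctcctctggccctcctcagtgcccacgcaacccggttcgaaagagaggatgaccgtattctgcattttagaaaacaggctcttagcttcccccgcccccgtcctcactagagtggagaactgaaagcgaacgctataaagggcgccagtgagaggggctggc
NFKBIZ window 2, chr3:101849264-101849513, plus strand: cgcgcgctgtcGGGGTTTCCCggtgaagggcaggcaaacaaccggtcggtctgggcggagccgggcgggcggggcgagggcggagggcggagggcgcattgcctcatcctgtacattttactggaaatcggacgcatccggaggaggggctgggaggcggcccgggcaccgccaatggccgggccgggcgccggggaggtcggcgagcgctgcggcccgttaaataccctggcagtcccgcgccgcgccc
TNFAIP3, chr6:137867009-137867258, plus strand: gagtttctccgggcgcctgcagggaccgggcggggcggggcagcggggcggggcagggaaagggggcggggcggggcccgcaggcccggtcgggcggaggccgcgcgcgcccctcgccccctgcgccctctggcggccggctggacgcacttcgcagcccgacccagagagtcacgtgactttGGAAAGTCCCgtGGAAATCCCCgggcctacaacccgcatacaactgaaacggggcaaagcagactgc
NFKB2 window 2, chr10:102394328-102394577, plus strand: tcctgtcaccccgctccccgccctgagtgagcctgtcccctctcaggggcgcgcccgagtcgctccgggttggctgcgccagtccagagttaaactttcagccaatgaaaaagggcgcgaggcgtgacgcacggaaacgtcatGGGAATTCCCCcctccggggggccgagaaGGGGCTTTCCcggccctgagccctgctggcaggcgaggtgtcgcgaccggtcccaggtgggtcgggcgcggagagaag
NFKBIA, chr14:35404750-35404999, minus strand: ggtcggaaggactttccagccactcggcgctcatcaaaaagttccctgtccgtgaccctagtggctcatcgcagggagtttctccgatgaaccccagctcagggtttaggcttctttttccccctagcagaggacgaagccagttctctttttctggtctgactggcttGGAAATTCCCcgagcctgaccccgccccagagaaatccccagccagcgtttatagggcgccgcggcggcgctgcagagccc

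The matches sat at different distances from the start. In NFKBIZ window 1 GGGAATTTCC began 223 bases before it, and in window 2 GGGGTTTCCC, which meets the consensus on both strands, began 239 bases before it. TNFAIP3, whose product ends the signal, had a pair of matches on the opposite strand, GGGACTTTCC and GGGGATTTCC, beginning 67 and 55 bases before the start. NFKBIA and NFKB1 held the same letters as NFKBIZ window 1, GGGAATTTCC, 81 bases before the start on the opposite strand in NFKBIA and 49 bases before it in NFKB1. In window 2 of NFKB2, GGGAATTCCC, which meets the consensus on both strands, began 107 bases before the start. It overlapped GGGGAATTCC on the opposite strand, 106 bases before the start, and GGGGCTTTCC followed at 78 bases. In window 3 of NFKB2, GGGGCTTCCC, which meets the consensus on both strands, began 176 bases before the start, and GGGACTTTCC 21 bases before it. BIRC3, which the arrays did not name, held GGGGATTTCC and GGGGAACTCC on the opposite strand, beginning 199 and 135 bases before its start. The 4 windows of SOD2 and the 2 of RELA held no match, which says only that these letters are not in those windows. The matches did not follow the calls in shTSC2 against control. SOD2 rose without a match in its windows, while NFKBIA and NFKB1 held a match and did not pass.

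**Figure D1:**
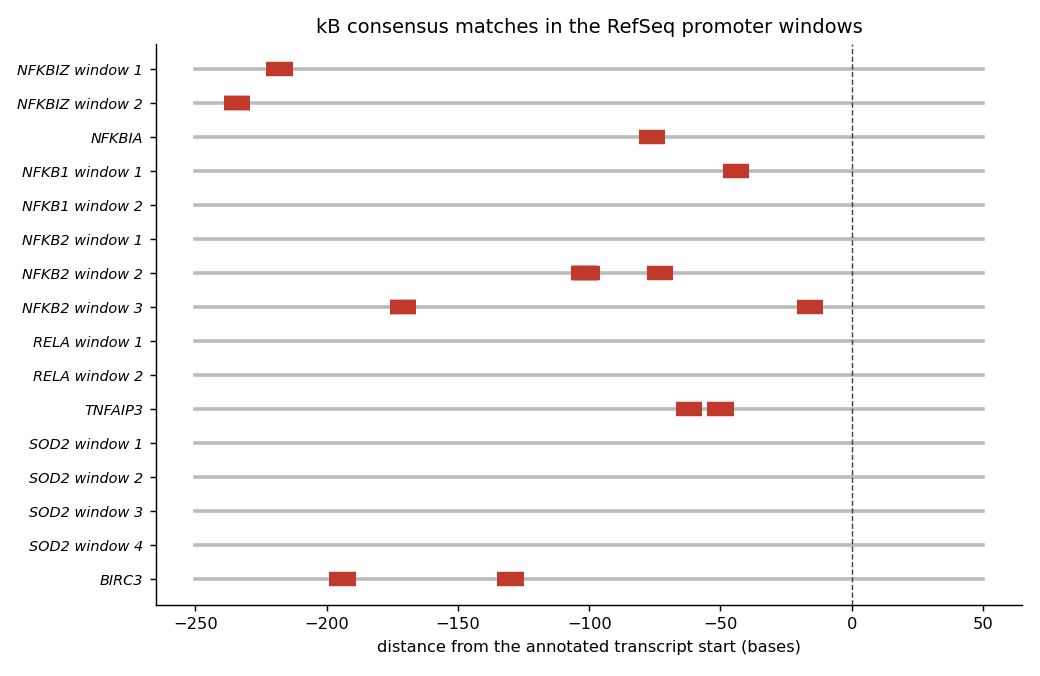
Positions of kB consensus matches (red) in the 16 RefSeq promoter windows of 8 members (grey lines), by distance from the annotated transcript start in bases, with the start as a dashed line. Matches lie in 8 windows of NFKBIZ, NFKBIA, NFKB1, NFKB2, TNFAIP3 and BIRC3, and the windows of SOD2 and RELA are empty.

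Among the inhibitors, NFKBIZ stood apart in size. Its log2 intensity was 5.47 and 5.55 in control, 8.43 and 7.98 in shTSC2, and 5.62 and 5.28 in shTSC2-adapted. Both shTSC2 arrays lay far above the other 4, and the adapted and control values overlapped. NFKBIZ rose by 2.70 in shTSC2 (SE 0.17, 95% interval 2.29 to 3.10, adjusted p = 0.00032, limma), the third highest difference of 18417 genes. In shTSC2-adapted it was lower than in shTSC2 by the third largest margin (-2.76, SE 0.17, adjusted p = 0.00109), and against control it differed by -0.06 (95% interval -0.46 to 0.34, adjusted p = 0.945). Both calls held in each of 15 alternatives. These are not all separate fits, since dropping an array of the third group equals using only the 4 arrays compared. The control and adapted values lie below the median of all probe sets (5.91) and above the lower quartile (4.33).

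NFKBIA, the classical inhibitor that NF-kB itself induces, followed another course. Its values were 9.52 and 9.31 in control, 10.22 and 9.76 in shTSC2, and 10.16 and 9.62 in shTSC2-adapted. Both knockdown groups lay above both control arrays, overlapped with each other, and had their higher value on array 1, as control did. The difference was 0.58 in shTSC2 against control (SE 0.21, 95% interval 0.08 to 1.07, adjusted p = 0.101) and 0.48 in shTSC2-adapted against control (95% interval -0.02 to 0.97, adjusted p = 0.418), and neither passed. Between the knockdown groups it was -0.10 (95% interval -0.60 to 0.40, adjusted p = 0.811), an interval that leaves room for a fall of up to 0.60.

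NFKBIE, which retains dimers of RELA or REL, had values of 7.21 and 7.25 in control, 8.23 and 7.62 in shTSC2, and 7.90 and 7.30 in shTSC2-adapted. Every knockdown array lay above both control arrays, narrowly so on shTSC2-adapted 2, and array 1 exceeded array 2 by 0.61 in shTSC2 and by 0.60 in shTSC2-adapted. NFKBIE differed by 0.70 in shTSC2 against control (SE 0.24, adjusted p = 0.0836), by 0.37 in shTSC2-adapted against control (95% interval -0.19 to 0.93, adjusted p = 0.611) and by -0.33 between the knockdown groups (95% interval -0.89 to 0.24, adjusted p = 0.440), none of which passed. Against control, NFKBIE did pass in 5 of 16 alternatives for shTSC2, among them quantile normalization (adjusted p = 0.0450), median centring (0.0407) and dim genes left out (0.0451). For NFKBIA and NFKBIE alike, leaving out shTSC2 2, the lower array, gave 0.81 and 1.00 against control with adjusted p = 0.0457 and 0.0246.

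**Figure D2:**
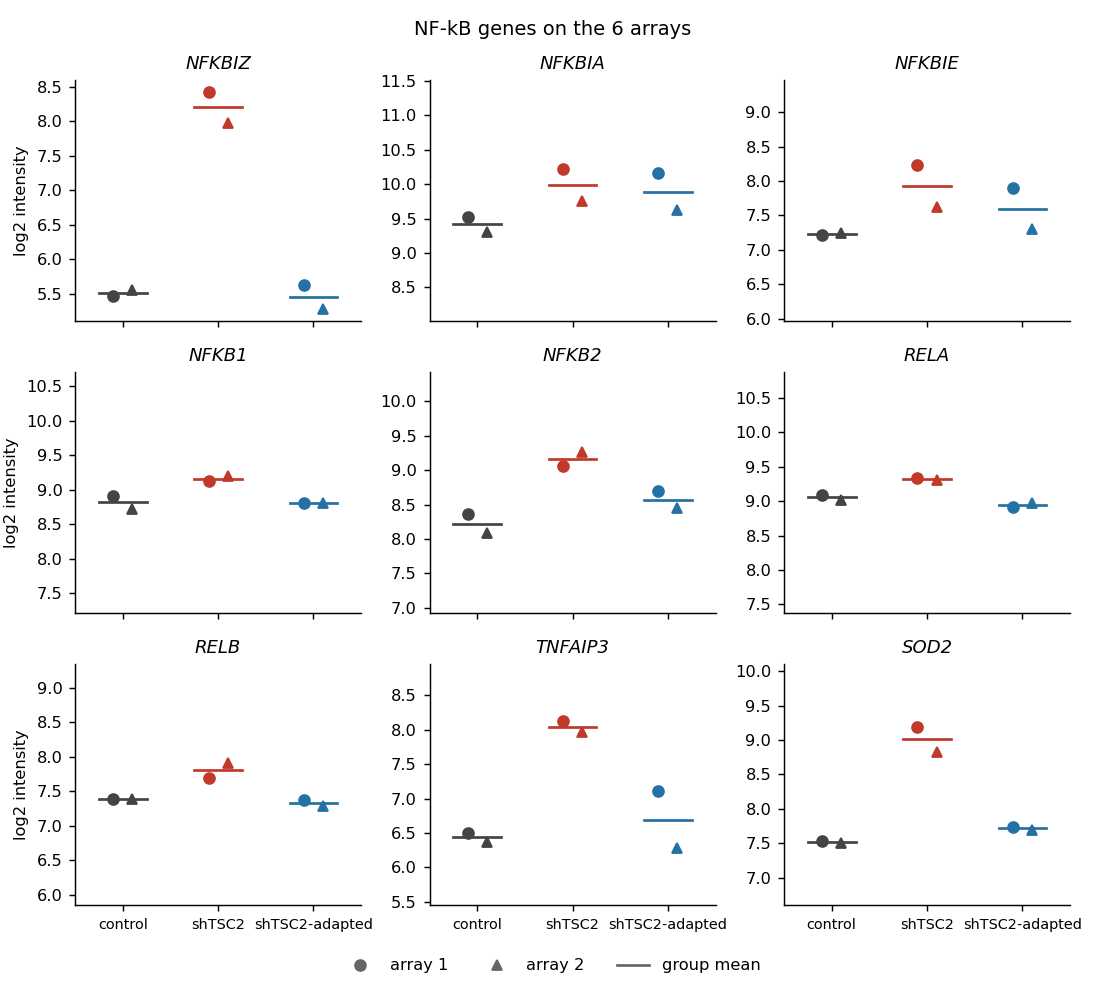
Log2 intensity of 9 members on each of the 6 arrays by group, with circles for array 1, triangles for array 2 and a line at the group mean; every panel spans the same number of log2 units. All genes shown except NFKBIA and NFKBIE are highest on both shTSC2 arrays, and the widest gap between arrays of a group is that of TNFAIP3 in shTSC2-adapted (0.83).

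Among the DNA-binding subunits, NFKB2 and RELB, which form the dimer of the non-canonical pathway, rose in shTSC2. NFKB2 had values of 8.36 and 8.09 in control, 9.06 and 9.26 in shTSC2, and 8.69 and 8.45 in shTSC2-adapted. The 3 groups did not overlap, and the adapted arrays lay between the others. NFKB2 rose by 0.94 in shTSC2 (SE 0.14, adjusted p = 0.00375), a call kept in all 16 alternatives. It was lower in the adapted cells than in shTSC2 (-0.59, SE 0.14, adjusted p = 0.0338) and stood 0.35 above control there (95% interval 0.02 to 0.67, adjusted p = 0.364), which did not pass.

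RELB read 7.39 on both control arrays, 7.70 and 7.91 in shTSC2, and 7.38 and 7.28 in shTSC2-adapted. Both shTSC2 arrays exceeded the other 4. RELB rose by 0.42 (SE 0.11, adjusted p = 0.0320), but not without control 1 (adjusted p = 0.171), control 2 (0.179) or shTSC2 2 (0.0914), nor with median centring (0.0878), every probe set tested (0.0698) or the replicate block (0.0507), and it passed in 10 of 16 alternatives. It was lower in the adapted cells than in shTSC2 (-0.48, SE 0.11, adjusted p = 0.0292), and against control it differed by -0.06 (95% interval -0.31 to 0.19, adjusted p = 0.900).

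RELA and NFKB1 make up the canonical dimer, and neither passed against control. RELA, whose product p65 is the main activator, had values of 9.09 and 9.02 in control, 9.34 and 9.31 in shTSC2, and 8.91 and 8.97 in shTSC2-adapted. The shTSC2 arrays were the highest and the adapted arrays the lowest, without overlap. RELA differed by 0.27 in shTSC2 against control (95% interval 0.06 to 0.48, adjusted p = 0.0801), by -0.12 in shTSC2-adapted against control (95% interval -0.33 to 0.10, adjusted p = 0.701), and was lower in the adapted cells than in shTSC2 (-0.39, SE 0.09, adjusted p = 0.0349). NFKB1, which gives p105 and p50, had values of 8.91 and 8.72 in control, 9.12 and 9.20 in shTSC2, and 8.81 on both adapted arrays. Its differences of 0.35 in shTSC2 against control (SE 0.10, adjusted p = 0.0534) and -0.35 between the knockdown groups (SE 0.10, adjusted p = 0.0702) did not pass, and shTSC2-adapted stood at -0.01 against control (95% interval -0.25 to 0.24, adjusted p = 0.991). The first of these passed with quantile normalization (adjusted p = 0.0379) and with dim genes left out (0.0477).

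The calls of lower subunits in shTSC2-adapted than in shTSC2 rested on the whole set of arrays. The RELA call ended without any 1 of the 6 arrays and with the replicate block (adjusted p = 0.0592, limma), and held in 3 of 16 alternatives. Leaving out control 1 or control 2 is the same fit here, that of the 4 arrays compared. The NFKB2 and RELB calls ended without any array other than shTSC2 1, with adjusted p up to 0.154 and 0.125. Gene span was also considered, since the members' spans run from 3.24 kb for NFKBIA to 93.2 kb for SOD2 and 116 kb for NFKB1. With a smooth trend of the differences on span removed, NFKB1 stood at 0.52 in shTSC2 against control (adjusted p = 0.0109) and at -0.50 in shTSC2-adapted against shTSC2 (0.0226), both past the threshold, while in the latter comparison NFKB2 (-0.47, 0.0691) and RELA (-0.28, 0.0865) did not pass.

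The feedback and target genes rose most after NFKBIZ. TNFAIP3 had values of 6.50 and 6.37 in control, 8.12 and 7.97 in shTSC2, and 7.11 and 6.28 in shTSC2-adapted. Both shTSC2 arrays lay above the other 4, and the adapted arrays, 0.83 apart, lay on either side of control. TNFAIP3 rose 3.05-fold in shTSC2 (1.61, SE 0.24, adjusted p = 0.00373) and was lower in the adapted cells than in shTSC2 (-1.35, SE 0.24, adjusted p = 0.0130; 0.0623 with every probe set tested). Against control the adapted cells differed by 0.26 (95% interval -0.30 to 0.82, adjusted p = 0.753), by -0.16 without shTSC2-adapted 1 and by 0.68 without shTSC2-adapted 2, neither past the test.

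SOD2 had values of 7.53 and 7.51 in control, 9.19 and 8.83 in shTSC2, and 7.73 and 7.70 in shTSC2-adapted. The groups did not overlap, and the adapted arrays lay close above control. SOD2 rose 2.81-fold in shTSC2 (1.49, SE 0.13, adjusted p = 0.000642) and was lower in the adapted cells than in shTSC2 (-1.30, SE 0.13, adjusted p = 0.00251), both in all 16 alternatives. Its difference of 0.20 between shTSC2-adapted and control did not pass (95% interval -0.11 to 0.50, adjusted p = 0.620).

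As a list, 5 of 9 members rose in shTSC2 against control and 0 fell, where 6.87% of all genes tested rose and 13.9% fell (1266 and 2567 genes, or 868 and 2962 with median centring). At an unadjusted p under 0.05 in limma, 9 were higher and 0 lower, where 13.7% of all genes were higher and 19.6% lower at that threshold. The groups' arrays did not overlap for any of the 9, a pattern that 62% of all genes also had. The shares without overlap were 6 of 9 members against 45.9% of genes between shTSC2-adapted and control, and 7 of 9 against 52.1% between shTSC2-adapted and shTSC2. The median difference of the members was 0.70, against 0.03 for all genes. Between shTSC2-adapted and shTSC2, 6 of 9 fell and 0 rose, where 3.24% of all genes fell and 9.25% rose, with a median of -0.48 against -0.03. At an unadjusted p under 0.05 in limma, 7 were lower and 0 higher, where 10.3% of all genes were lower and 16.7% higher. The count of 6 was 3 without any 1 array other than shTSC2 1. Between shTSC2-adapted and control, 0 of 9 passed with limma, where 0.261% of all genes did (0.0543% higher and 0.206% lower), and 1 (NFKB2) was higher at an unadjusted p under 0.05, where 5.33% of all genes were higher and 7.25% lower. Both knockdown groups were set against the same control arrays, and the shTSC2 arrays enter 2 of the 3 comparisons. The members were chosen with earlier results of these data known, so these shares are a description and not a test of the list.

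**Figure D3:**
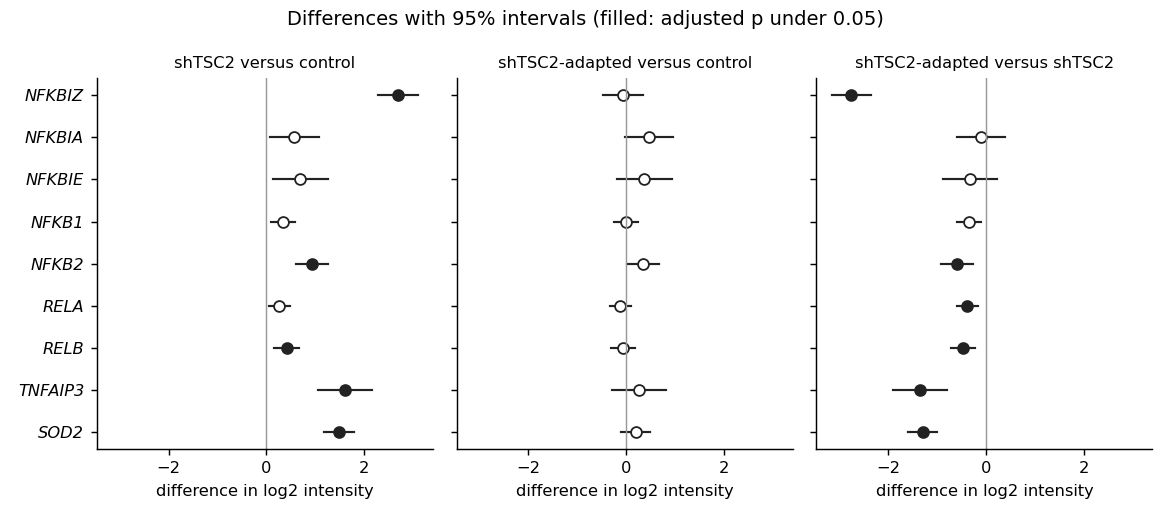
Difference in log2 intensity of the 9 members in each comparison, with the 95% interval of the model; filled points passed at an adjusted p under 0.05. In shTSC2 versus control 5 points are filled, in shTSC2-adapted versus control none, and in shTSC2-adapted versus shTSC2 6, all below 0.

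The rest of the pathway was read from a list of 102 further genes sorted by role, of which 96 were measured. This list too was chosen with earlier results of these data known, so its counts and shares are a description and not a test. In shTSC2 against control 28 rose, 11 fell and 57 did not pass, with a median difference of 0.12. Without control 1 or control 2 the number that passed dropped from 39 to 19 and 17. Among all genes tested 6.87% rose and 13.9% fell, so the share of the list that fell, 11 of 96, was near that of all genes.

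Of 4 other subunits and ankyrin proteins, 3 rose, where 6.87% of all genes did, and BCL3 stood at 0.28 (adjusted p = 0.143, limma). REL, the c-Rel subunit, had values of 6.98 and 7.22 in control, 7.96 and 7.65 in shTSC2, and 7.63 and 7.14 in shTSC2-adapted. REL rose by 0.71 in shTSC2 (SE 0.19, adjusted p = 0.0346), NFKBID, a nuclear relative of NFKBIZ, by 0.66 (adjusted p = 0.0312), and NFKBIB, I-kappa-B beta, by 0.46 (adjusted p = 0.0203). None of these 3 calls held without control 1, control 2 or shTSC2 1, and NFKBID also ended without either adapted array (adjusted p up to 0.215, 0.182 and 0.168). Against shTSC2, 0 of the 4 passed in shTSC2-adapted with limma, and 2 were lower at an unadjusted p under 0.05.

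Of 20 receptors and adaptors, 3 rose and 2 fell, where 6.87% of all genes rose and 13.9% fell. The share of this role that fell was thus not above that of all genes. IRAK2, a kinase of interleukin-1 and Toll-like receptor signalling, rose by 0.78 (SE 0.13, adjusted p = 0.00609; 0.0710 without control 2), and TRAF1, an adaptor that NF-kB induces, rose by 0.78 (SE 0.21, adjusted p = 0.0377), which did not hold without control 1, shTSC2 1 or shTSC2 2 (adjusted p up to 0.217), or with array weights, every probe set tested or the replicate block. IL1R1, the interleukin-1 receptor, fell by 0.80 (adjusted p = 0.00488; 0.0565 without control 1), though it is dim, with 4.96 and 4.80 in control and 4.23 and 3.94 in shTSC2. TNFRSF1A, the main receptor for tumour necrosis factor, fell from 8.84 and 8.81 to 8.34 and 8.05 (-0.63, SE 0.12, adjusted p = 0.00938; 0.0825 and 0.0793 without control 1 and control 2). In shTSC2-adapted, IL1R1 was the 1 receptor gene that passed against shTSC2, at 4.64 and 4.74 (0.61, SE 0.13, adjusted p = 0.0229), and that call held only without shTSC2 1 when 1 array was left out (otherwise up to 0.106).

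Of 18 kinases and ubiquitin ligases of activation, 3 rose and 5 fell, where 6.87% of all genes rose and 13.9% fell. MAP3K8 (TPL2), the kinase that p105 holds inactive, rose from 6.49 and 6.50 in control to 7.72 and 7.27 in shTSC2 (1.00, SE 0.15, adjusted p = 0.00367) and was lower again in shTSC2-adapted, at 6.68 and 6.61 (-0.85 against shTSC2, adjusted p = 0.0122; up to 0.0682 without either adapted array). SHARPIN, a subunit of the linear ubiquitin ligase, rose by 0.46 (adjusted p = 0.0234; up to 0.186 without control 1, control 2 or shTSC2 1). MAP3K14, the NIK kinase that drives processing of NFKB2 p100, fell from 7.96 and 7.91 to 6.85 and 6.99 (-1.02, SE 0.18, adjusted p = 0.00815; up to 0.0710 without control 1 or control 2). NFKB2 and RELB rose in the same arrays in which this kinase transcript was lower, though RELB passed in only 10 of 16 alternatives. The RELB difference (0.42) was also close in size to that of NFKB1 (0.35), which did not pass. A link between these changes was not tested. MALT1, a protease of the CARD signalling complex, fell by 0.96 (SE 0.11, adjusted p = 0.00155), as did BTRC, the F-box protein that recognises phosphorylated NFKBIA, by 0.96 (SE 0.12, adjusted p = 0.00185). IKBKB, the kinase that phosphorylates NFKBIA, fell by 0.41 (adjusted p = 0.0312; up to 0.195 without control 1, control 2 or shTSC2 2). NFKBIB, BTRC and IKBKB are named here after their values were seen. In shTSC2-adapted, BTRC (0.95, adjusted p = 0.00395) and MALT1 (0.86, adjusted p = 0.00449) were higher than in shTSC2, and SHARPIN was lower (-0.44, adjusted p = 0.0400), the last only without shTSC2 2 when 1 array was left out.

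Of 17 negative regulators, 4 rose and 1 fell, where 6.87% of all genes rose and 13.9% fell. ZC3H12A (regnase-1), an RNase that degrades inflammatory mRNAs, had values of 6.52 and 6.47 in control, 7.57 and 7.17 in shTSC2, and 6.48 and 6.50 in shTSC2-adapted. It rose by 0.88 (SE 0.14, adjusted p = 0.00464; 0.0564 without control 2) and was lower in the adapted cells than in shTSC2 (-0.88, SE 0.14, adjusted p = 0.00831; 0.0562 without shTSC2-adapted 1). PDLIM2, which promotes removal of nuclear RELA, rose by 0.79 (SE 0.12, adjusted p = 0.00359). COMMD1, which also promotes degradation of RELA, went the other way, from 7.06 and 6.99 to 6.53 and 6.51 (-0.51, adjusted p = 0.00920; up to 0.0940 without control 1 or control 2). COMMD1 then stood at 7.36 and 7.26 in shTSC2-adapted, above shTSC2 by 0.79 (SE 0.09, adjusted p = 0.00371). NKIRAS1, a small GTPase that slows degradation of the inhibitors, was lower in the adapted cells than in shTSC2 (-0.48, adjusted p = 0.0323), a call that held only without shTSC2 2 when 1 array was left out.

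Of 37 transcribed targets, 15 rose and 3 fell in shTSC2, where 6.87% of all genes rose and 13.9% fell. The serum amyloid genes SAA2 and SAA1, which encode acute-phase proteins, rose most, by 3.10 (SE 0.44, adjusted p = 0.00308) and 2.87 (SE 0.39, adjusted p = 0.00276). These are near-identical paralogs, so their probe sets may read each other's transcripts. BCL2L1, which encodes the survival protein BCL-XL, fell from 10.11 and 10.12 to 9.23 and 9.11 (-0.95, SE 0.10, adjusted p = 0.00101), and PLAU, the urokinase gene, fell by 0.78 (adjusted p = 0.0128; up to 0.104 without control 1 or control 2). In shTSC2-adapted against shTSC2, 14 targets fell and 1 rose, where 3.24% of all genes fell and 9.25% rose. SAA2 fell by 3.01 (adjusted p = 0.00653) and SAA1 by 2.81 (adjusted p = 0.00576; 0.0502 without shTSC2-adapted 1), and BCL2L1 was the 1 that rose (0.67, adjusted p = 0.00628).

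Over the whole pathway list, 20 of 96 fell and 5 rose between shTSC2-adapted and shTSC2, with a median of -0.13, where 3.24% of all genes fell and 9.25% rose. Between shTSC2-adapted and control 0 of 96 passed with limma (0.261% of all genes did), and 2 with array weights. At an unadjusted p under 0.05, 10 were higher and 8 lower, where 5.33% and 7.25% of all genes were.

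The 3 highest differences of the list between shTSC2-adapted and control belonged to the chemokine genes CXCL8, CXCL2 and CCL20, named here after their values were seen. CXCL8, which encodes interleukin-8, had values of 5.48 and 5.42 in control, 7.80 and 7.11 in shTSC2, and 8.01 and 6.12 in shTSC2-adapted. Its difference of 1.62 between shTSC2-adapted and control was the second highest of 18417 genes, yet did not pass (SE 0.53, 95% interval 0.37 to 2.86, adjusted p = 0.265). CXCL2 stood at 6.97 and 5.44 in shTSC2-adapted against 5.27 and 4.65 in control (1.25, adjusted p = 0.316), and CCL20 at 6.43 and 5.00 against 4.67 and 4.58 (1.09, adjusted p = 0.397). For all 3 genes both adapted arrays lay above both control arrays, array 1 well above array 2.

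**Figure D4:**
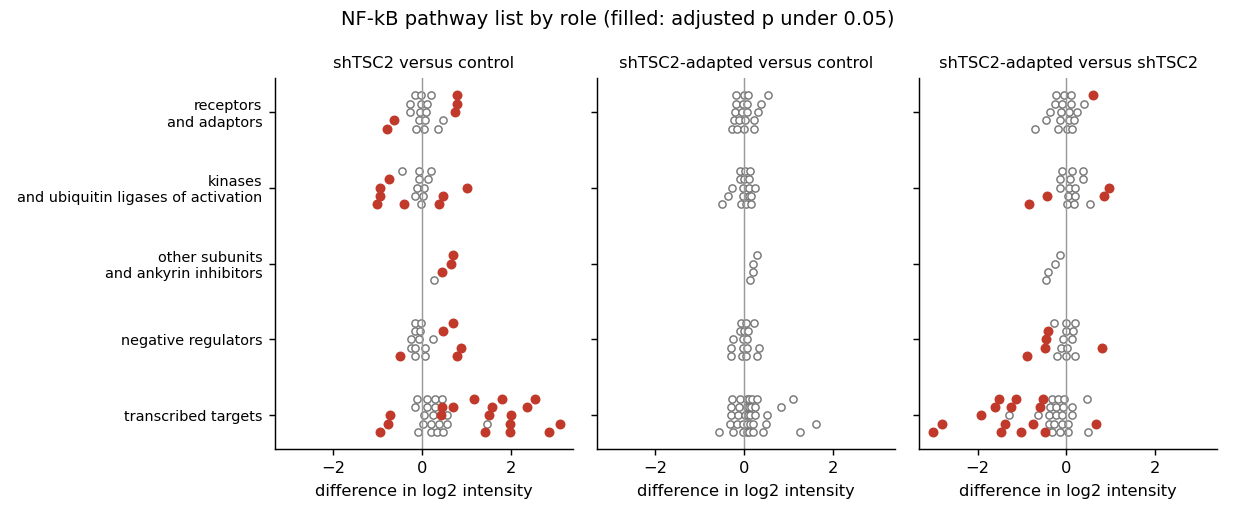
Difference in log2 intensity of the 96 measured genes of the pathway list in each comparison, 1 point per gene, by role; points are spread vertically only for legibility, and filled points passed at an adjusted p under 0.05. Filled points among the targets lie mostly to the right in shTSC2 versus control (15 of 18) and to the left in shTSC2-adapted versus shTSC2 (14 of 15), and there are none in shTSC2-adapted versus control.

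The genes closest to NFKBIZ over the 6 arrays were sought among 18408 other genes, by the Euclidean distance between log2 values centred per gene. This distance is not scaled, so it weighs the size of a change along with its pattern. They were LOC731157, annotated as a long non-coding RNA, at a distance of 0.60, then SAA1 (0.89), SAA2 (0.93), C3, the central complement component (0.95), and PTGS2, the inducible prostaglandin synthase (0.96). LOC731157 had values of 5.49 and 5.41 in control, 8.12 and 7.62 in shTSC2, and 5.44 and 5.65 in shTSC2-adapted, so its higher shTSC2 array was that of NFKBIZ. PTGS2 had 4.20 and 4.26 in control, near the lower quartile of all probe sets, 6.35 and 6.07 in shTSC2, and 4.27 and 4.32 in shTSC2-adapted. Among the members, TNFAIP3 (distance 1.54) and SOD2 (1.58) ranked 19 and 23 among all other genes by this measure, NFKB2 (2.36) ranked 211, and NFKBIA (2.82) ranked 1601. RELA (2.80) and NFKB1 (2.79), also highest on both shTSC2 arrays but with smaller differences, ranked 1456 and 1368.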

How the data were processed

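Total RNA of 6 Du145 samples (100 ng each) was biotin-labelled for whole-transcript arrays, per the labels' protocols. The authors deposited 1 linear intensity per probe set and array, made by RMA (per the submitters' processing notes); version, probe definition and build were not given in the sources used here. Because RMA makes the arrays alike, it can hide a shift common to most genes. Log2 of the intensities was used, each within 6.99e-10 of 2 decimals. Of 33297 probe sets, 19460 had 1 gene symbol in the platform's annotation, 1754 had several and 12083 are unnamed here; the set with the highest mean was kept per gene. Gene names and spans came from RefSeq (GRCh38.p14).

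One model per gene over all 6 arrays was fitted with limma 3.58.1 in R 4.3.3, with 3 residual degrees of freedom, and tested on simulated data. Of the pathway list, the 2 largest rises and falls per role and comparison that passed are named, and the 5 genes nearest to NFKBIZ; genes named outside this rule are marked in the text. Members, lists, motifs and tests were chosen with earlier results of these data known. Alternatives are in the closing section. Arrays have no read depth.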

Additional observations from a re-analysis of the deposited data

How the results depend on the processing

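The settings tried were median centring, quantile normalization, leaving out dim genes (which removed NFKBIZ), averaging a gene's probe sets, testing every probe set, using only the 4 arrays compared, array weights, an intensity trend, the replicate number as a block, removing the trend on gene span, and leaving out each array. Of 429 recomputed member differences, 374 kept direction and side of the threshold, 36 lost their call, 11 gained one and 8 changed sign. The cause of these changes was not tested, apart from the fewer arrays or more sets tested that some settings imply. Some alternatives repeat each other. Leaving out either array of the group not compared gave the same fit as using only the 4 arrays compared. Averaging probe sets left each member's difference unchanged, since each had 1 set. The counts of alternatives are therefore not counts of independent checks.

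The number of members that passed stayed within 1.5 times in shTSC2 against control (4 to 6 without 1 array). In shTSC2-adapted against shTSC2 it was 3 to 5 without 1 array, 2 with every probe set tested and 3 with only the 4 arrays compared, against 6. Pathway genes that passed numbered 17 to 43 without 1 array in shTSC2 against control (39 in full). They numbered 0 to 1 without 1 array, 1 with only the 4 arrays compared and 2 with array weights in shTSC2-adapted against control (0 in full). In shTSC2-adapted against shTSC2 they numbered 15 to 28 without 1 array and 14 with every probe set tested (25 in full).

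Signs changed only for differences that did not pass. In shTSC2-adapted against control NFKB1 was 0.0067 with quantile normalization, 0.0281 with the span trend removed and -0.10 to 0.09 without 1 array (0.09 without control 1). TNFAIP3 ranged from -0.16 (without shTSC2-adapted 1) to 0.68, and NFKBIZ from -0.23 to 0.11 (without shTSC2-adapted 2). In shTSC2-adapted against shTSC2 NFKBIA was 0.0369 with the span trend removed and -0.37 to 0.17 without 1 array, 0.13 without shTSC2 1 and 0.17 without shTSC2-adapted 2.

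Arrays of the groups share the numbers 1 and 2, but nothing in the labels pairs them. Deviations of same-numbered arrays correlated at -0.10 (shTSC2 and control), -0.19 (shTSC2-adapted and control) and 0.21 (both knockdown groups). With the replicate number as a block, 6 members passed in shTSC2 against control in place of 5, NFKBIA (adjusted p = 0.0189) and NFKBIE (0.0367) passing and RELB not (0.0507), while 0 and 5 passed in the other comparisons and 40, 0 and 25 pathway genes did. With the control numbers crossed, an alternative chosen after seeing the data, 7 members and 43 pathway genes passed in shTSC2 against control and 0 of either in shTSC2-adapted against control.

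Of all genes, 48 passed in shTSC2-adapted against control, 199 with median centring, 437 with array weights, 1 with the replicate block, and 0 with every probe set tested or without any 1 of the control or shTSC2-adapted arrays. Signals near the lower quartile of 4.33 say little about change.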
